A study of Homo sapiens with 6 samples.

Results

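The transcripts described here are those of the human DNA topoisomerases and of the tyrosyl-DNA phosphodiesterases that repair the adducts these enzymes can leave behind. Members were chosen by symbol, through their Ensembl identifiers, and comprise *TOP1*, *TOP1MT*, *TOP2A*, *TOP2B*, *TOP3A*, *TOP3B*, *TDP1* and *TDP2*, which are 8 of the 58336 genes in the count table. All 8 were found. Messenger RNA was sequenced from A2780 cells, an established ovarian cancer line, after 48 h with 6 µM TH588, an inhibitor of the nucleotide-sanitizing hydrolase MTH1, and from cells given DMSO, its vehicle, for which the labels state no time of their own. Each treatment had 3 biological replicates (A, B and C). These libraries represent 1 cell line at 1 dose and 1 time, so nothing can be said here of other lines or of the order of events.

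Topoisomerases release the supercoils and tangles that replication, transcription and chromosome segregation create. They do so by cutting DNA through a tyrosine that stays covalently bound to the broken end until the break is resealed. Type I enzymes cut one strand, whereas type II enzymes cut both and pass another duplex through the gap. When resealing fails, the trapped enzyme is a DNA-protein adduct, which proteases trim and which TDP1 (at 3′ ends, mainly after TOP1) or TDP2 (at 5′ ends, mainly after TOP2) then releases. TOP1 poisons such as topotecan and TOP2 poisons such as etoposide act by trapping these intermediates.

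Total counts ranged from 77634048 to 99074175 in 5 libraries and were 28537837 in TH588 replicate A, where the small nucleolar RNA *SNORD3A* took 21.94% of all counts, against 7.68% to 12.95% in the others. Results are therefore given without that library where it matters. The cell type markers did not follow a uniformly epithelial pattern. Of 6 epithelial markers, *KRT8*, *KRT19*, *CDH1* and *PAX8* had at most 20 counts in every library. The other 2 had a mean of at least 1 CPM (counts scaled to a common library size). *EPCAM* had 41 to 83 counts with DMSO and 116 to 540 with TH588, and *KRT18* had 259 to 344 and 164 to 761. These are raw counts, and the lowest TH588 value of each gene is from replicate A, the library with the fewest counts. The 6 epithelial markers together took 3.73 to 4.57 CPM with DMSO and 10.7 to 12.1 CPM with TH588. All 6 fibroblast markers had a mean of at least 1 CPM, and the list summed to 1591 to 1919 CPM with DMSO and 1882 to 2622 CPM with TH588, nearly all of it *COL3A1*. The leukocyte markers summed to at most 1.36 CPM and the endothelial markers to at most 0.149 CPM, with all 4 endothelial genes at no more than 20 counts. The part these markers play in the results below was not tested.

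Because *TOP2A* and its close relative *TOP2B* gave the clearest contrast in this family, their upstream DNA is shown before the values. The sequences are RefSeq's (GRCh38.p14), printed 5′ to 3′ on the coding strand, and capitals mark the letters CCAAT read on either strand (ATTGG on the printed strand). The *TOP2A* stretch is chr17:40417951-40418146 on the minus strand, and the 54 bases between it and the RefSeq start were left out of print because the count table's gene model already includes them. The *TOP2B* stretch is chr3:25664908-25665157, also on the minus strand, and ends at the more upstream of its 2 RefSeq starts.
*TOP2A*: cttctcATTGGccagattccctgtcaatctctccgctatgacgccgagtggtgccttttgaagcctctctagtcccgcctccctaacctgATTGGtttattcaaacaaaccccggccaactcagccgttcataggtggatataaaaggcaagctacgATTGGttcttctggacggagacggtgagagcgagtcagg
*TOP2B*: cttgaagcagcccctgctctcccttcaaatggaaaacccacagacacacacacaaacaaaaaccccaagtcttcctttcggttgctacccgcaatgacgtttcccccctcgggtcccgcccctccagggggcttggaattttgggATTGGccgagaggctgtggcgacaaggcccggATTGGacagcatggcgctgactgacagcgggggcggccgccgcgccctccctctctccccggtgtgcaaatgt

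The *TOP2A* window of 250 bases held 4 CCAAT matches, whose first bases lay 244, 160, 93 and 53 bases upstream of the start. Of these, 3 are in the printed stretch, each in the ATTGG orientation. The *TOP2B* window held 2, at 105 and 73 bases. Of all 35116 RefSeq windows of this length, 32.0% held at least 1 CCAAT, 9.53% at least 2 and 0.874% at least 4. The letters TTTGAA or TTCGAA on either strand, which resemble the cell cycle homology region of many mitotic genes, occurred 2 times for *TOP2A*, 1 time for this *TOP2B* window and 1 time for *TDP1*, against 14.3% of all windows with at least 1 and 1.90% with at least 2. TTTGGCGC or TTTCGCGC, which resemble E2F sites, were in none of the 8 windows found for 7 members, and in 0.968% of all windows. No matches overlapped each other. The windows of *TOP1*, *TOP3A*, *TOP3B* and *TDP2*, and the more downstream *TOP2B* window, held none of these letters. Among 35 windows of 29 G2/M genes, 42.9% held at least 2 CCAAT and 54.3% at least 1 of TTTGAA or TTCGAA. These matches are descriptions of the sequence, not of bound factors.

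TH588 was followed by lower levels of 5 of the 7 members that could be tested, and by higher levels of none. *TOP2A*, *TOP3A*, *TDP1* and *TOP1* fell to between 35.7% and 68.3% of their DMSO level, and *TOP1MT* passed the threshold narrowly. *TOP2B* and *TDP2* did not pass it. Tests were edgeR's quasi-likelihood test on TMM-scaled counts, and p-values were adjusted (Benjamini-Hochberg) over all 15844 genes tested, with a threshold of 0.05. SE is the standard error of a log2 fold change. In the same comparison, 25.3% of all genes tested were called lower and 24.2% higher, 49.6% in all. The median log2 fold change was -0.55 over the 7 members and 0.02 over all genes. In bulk RNA, fewer cells of a kind and less RNA per cell cannot be told apart.

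**Figure D1:**
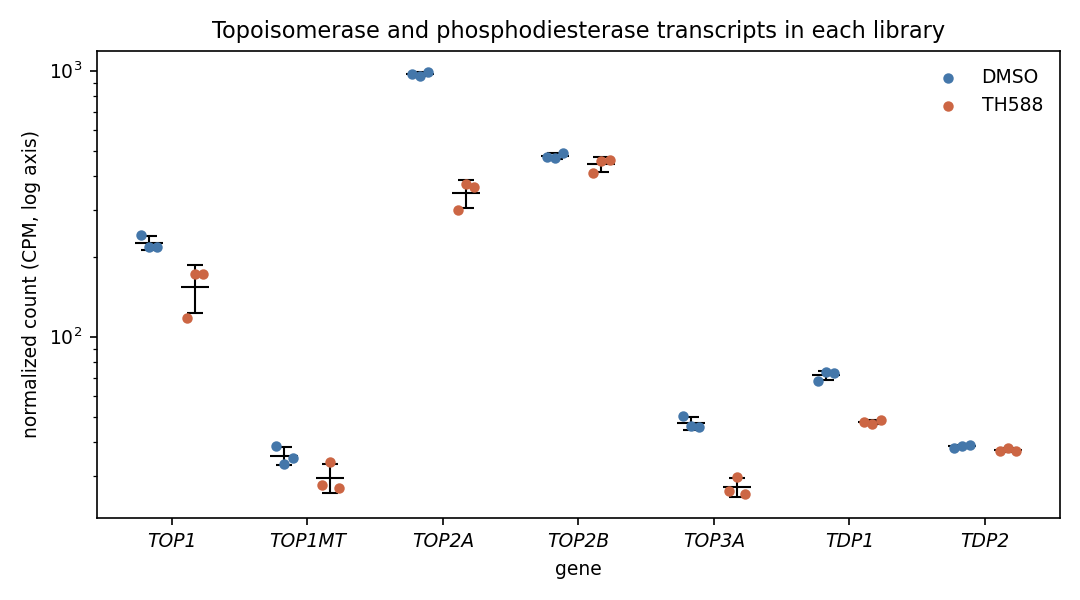
Normalized counts (CPM, log axis) of the 7 detected genes in each library; each point is 1 library, horizontal marks are means and bars are SD (n = 3). *TOP2A* lies between 952.9 and 986.9 CPM in the DMSO libraries and between 298.7 and 376.2 CPM in the TH588 libraries, while the *TOP2B* points lie close together.

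*TOP2A* (ENSG00000131747, chromosome 17 of GRCh38, 40388516 to 40417950, minus strand) encodes topoisomerase IIα, the type II enzyme of proliferating cells, which untangles sister chromatids and is a structural component of mitotic chromosomes. Its normalized counts were 973.6, 952.9 and 986.9 CPM with DMSO and 298.7, 376.2 and 364.4 CPM with TH588 (replicates A, B and C in that order). The groups lay far apart, and TH588 replicate A was the lowest. The means were 971.1 ± 17.2 and 346.4 ± 41.8 CPM (SD, n = 3 each), or -1.49 on the log2 scale (SE 0.10, 95% interval -1.69 to -1.28, edgeR adjusted p = 2.21e-07). This was 2.80-fold lower, and only 1.42% of the genes tested had a more negative log2 fold change. Without TH588 replicate A the log2 fold change was -1.38.

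*TOP2B* (ENSG00000077097, chromosome 3, 25597905 to 25664907, minus strand) encodes topoisomerase IIβ, which is made in dividing and resting cells alike and acts at transcribed genes and chromatin loop anchors. It stood at 472.8, 468.0 and 491.7 CPM with DMSO and at 412.7, 459.3 and 463.3 CPM with TH588 (replicates A, B and C in that order). The TH588 values all lay below the DMSO values, but the gap between the nearest libraries was small. The means were 477.5 ± 12.5 and 445.1 ± 28.2 CPM (SD, n = 3 each), or -0.10 on the log2 scale (95% interval -0.27 to 0.07, edgeR adjusted p = 0.311). Without TH588 replicate A the log2 fold change was -0.04, and without DMSO replicate C it was -0.06. A decrease larger than 0.27 on the log2 scale lies outside this interval. With library size only as the scaling, the value was 0.006, and the median over all genes then moved from 0.02 to 0.13.

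Division of each level by the length of the gene's exons in the table (6437 bases for *TOP2A*, 6044 for *TOP2B*) allows the enzymes to be compared. Per kb, *TOP2A* was 1.93, 1.91 and 1.89 times as abundant as *TOP2B* with DMSO, and 0.680, 0.769 and 0.739 times as abundant with TH588 (replicates A, B and C in that order). The order of the type II enzymes was thus opposite in the treatment groups, in every library. The log2 ratio differed by -1.39 between the groups (0.934 ± 0.0184 with DMSO and -0.458 ± 0.0910 with TH588, SD, n = 3 each). The exact two-sided permutation test gave p = 0.1, the smallest that 3 libraries against 3 allow (0.15 when adjusted over the 3 pairs of genes compared). *TOP2A* made up 65.6% ± 0.288 of the type II transcript level with DMSO and 42.1% ± 1.54 with TH588 (SD, n = 3 each). The ratio is taken within a library, so it does not depend on how libraries were scaled.

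**Figure D2:**
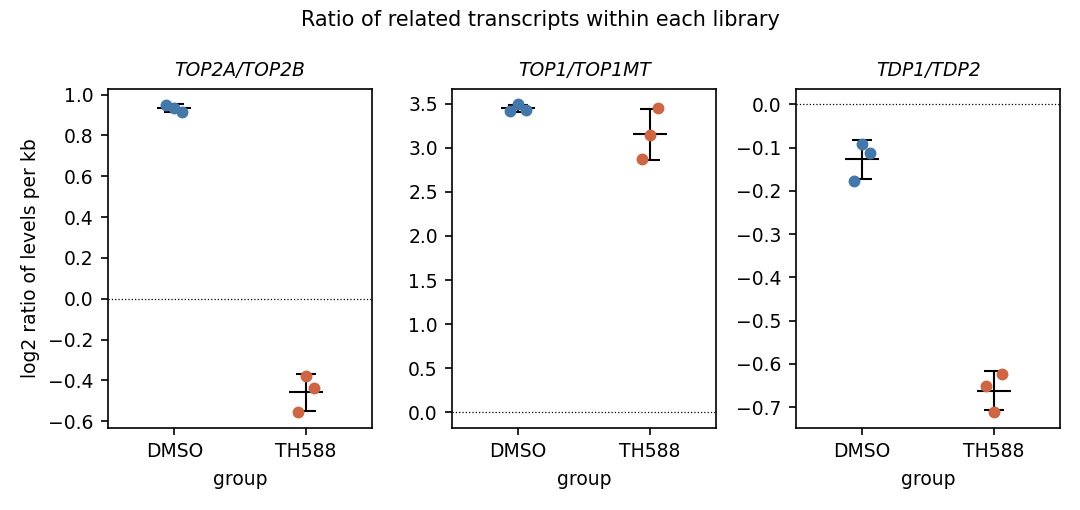
Log2 ratio of the length-scaled levels of related genes within each library (vertical axes differ in range); points are libraries, horizontal marks are means and bars are SD (n = 3). The *TOP2A* to *TOP2B* ratio is above 0 in the 3 DMSO libraries and below 0 in the 3 TH588 libraries, the *TDP1* to *TDP2* ratio shifts downward, and the *TOP1* to *TOP1MT* groups overlap.

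*TOP1* (ENSG00000198900, chromosome 20, 41028818 to 41124487, plus strand) encodes the nuclear type I enzyme that relaxes supercoils ahead of polymerases. Its level was 240.9, 217.5 and 218.1 CPM with DMSO and 117.6, 172.5 and 171.3 CPM with TH588 (replicates A, B and C in that order). TH588 replicate A was well below the other 2 TH588 libraries, and the groups did not overlap. Mean *TOP1* fell from 225.5 ± 13.3 to 153.8 ± 31.3 CPM (SD, n = 3 each), or -0.55 on the log2 scale (SE 0.13, edgeR adjusted p = 0.00346). Without TH588 replicate A the log2 fold change was -0.38 (edgeR adjusted p = 0.00123). With library size only it was -0.43 and no longer passed the threshold (edgeR adjusted p = 0.0600).

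*TOP1MT* (ENSG00000184428, chromosome 8, 143304384 to 143359979, minus strand) encodes the related enzyme of mitochondria, which relaxes mitochondrial DNA. It was at 38.9, 33.3 and 34.9 CPM with DMSO and at 27.8, 33.7 and 27.1 CPM with TH588 (replicates A, B and C in that order). TH588 replicate B lay inside the DMSO range, so the groups overlapped. The log2 fold change was -0.27 (SE 0.10, edgeR adjusted p = 0.0460). That call was lost with the replicate letter as a block (-0.28, edgeR adjusted p = 0.0718) and when any of 5 libraries was left out, namely DMSO replicate A (-0.19), B (-0.32) or C (-0.27) or TH588 replicate A (-0.22) or C (-0.19). The log2 ratio of *TOP1* to *TOP1MT* differed by -0.29 between the groups (exact two-sided permutation test, p = 0.3), by -0.15 without TH588 replicate A and by -0.44 without TH588 replicate C.

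*TOP3A* (ENSG00000177302, chromosome 17, 18271428 to 18315007, minus strand) encodes topoisomerase IIIα, a type I enzyme that separates recombination intermediates together with the BLM helicase and also works in mitochondria. Its level was 50.2, 46.0 and 45.6 CPM with DMSO and 26.3, 29.7 and 25.7 CPM with TH588 (replicates A, B and C in that order). Every TH588 library lay below every DMSO library, and the libraries within a group were close. Mean *TOP3A* fell from 47.3 ± 2.56 to 27.2 ± 2.17 CPM (SD, n = 3 each), or -0.79 on the log2 scale (SE 0.09, edgeR adjusted p = 1.48e-05).

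*TOP3B* (ENSG00000100038, chromosome 22, 21957025 to 21982816, minus strand) encodes topoisomerase IIIβ, which can also act on RNA. It was listed at 0 counts in all 6 libraries and could not be tested. At 0 counts, a level of up to 3 counts remains possible, which is 0.112 CPM in TH588 replicate A and 0.0276 to 0.0365 CPM in the other libraries, for counting error only. Exons of *PPM1F-AS1*, an antisense transcript, covered 90.7% of the *TOP3B* exon bases, leaving 617 bases of its own. *PPM1F-AS1* itself had only 9 to 75 counts per library. How reads in shared exons were treated is not given in the sources used here, so the 0 cannot be read as the level of *TOP3B*. The pseudogene *TOP3BP1* was also at 0 in all 6 libraries.

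*TDP1* (ENSG00000042088, chromosome 14, 89954939 to 90044768, plus strand) stood at 68.3, 73.5 and 73.0 CPM with DMSO and at 47.9, 46.9 and 48.8 CPM with TH588 (replicates A, B and C in that order). The groups were well separated and the TH588 libraries nearly equal. Mean *TDP1* fell from 71.6 ± 2.87 to 47.9 ± 0.943 CPM (SD, n = 3 each), or -0.58 on the log2 scale (SE 0.08, edgeR adjusted p = 4.84e-05).

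*TDP2* (ENSG00000111802, chromosome 6, 24649977 to 24667033, minus strand) was at 38.3, 38.8 and 39.0 CPM with DMSO and at 37.2, 38.1 and 37.2 CPM with TH588 (replicates A, B and C in that order). These 6 values lay within 2 CPM of each other. Its log2 fold change was -0.05 (95% interval -0.21 to 0.12, edgeR adjusted p = 0.647), and 0.06 with library size only. With each library left out in turn it lay between -0.06 and -0.02. Per kb of exon, the *TDP1* level was 0.884, 0.938 and 0.925 times that of *TDP2* with DMSO and 0.637, 0.610 and 0.649 times with TH588 (replicates A, B and C in that order). The groups did not overlap in this ratio. That *TDP1* is the lower of the pair depends on the exon lengths in the table (6227 bases for *TDP1*, 3082 for *TDP2*). By CPM alone *TDP1* was the higher, at 71.6 against 38.7 with DMSO and 47.9 against 37.5 with TH588. The log2 ratio differed by -0.53 (exact two-sided permutation test, p = 0.1, the smallest possible here; 0.15 adjusted over 3 pairs).

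**Figure D3:**
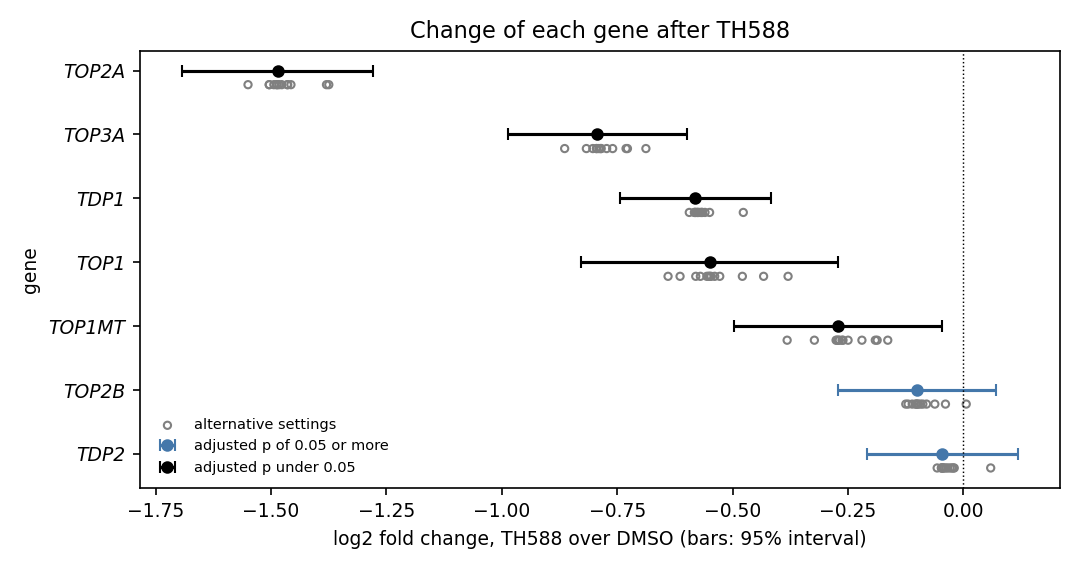
Log2 fold change (TH588 over DMSO) of each tested gene with its 95% interval from edgeR; black marks an adjusted p under 0.05, blue a higher one, and open circles are the alternative settings. *TOP2A* lies near -1.49, *TOP3A*, *TDP1* and *TOP1* between -0.79 and -0.55, and the intervals of *TOP2B* and *TDP2* include 0.

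Non-overlap by itself was common in these libraries. All TH588 values lay below all DMSO values for 6 of the 7 tested members, against 29.0% of all genes tested (57.7% when both directions are counted), and *TOP2B* and *TDP2* are among the 6 although neither passed the test.

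The length-scaled levels put the genes in an order with DMSO, which ran from *TOP2A* (150.9 ± 2.67 CPM per kb) through *TOP2B* (79.0 ± 2.07) and *TOP1* (60.3 ± 3.57) to *TDP2* (12.6 ± 0.130), *TDP1* (11.5 ± 0.461), *TOP3A* (7.30 ± 0.395) and *TOP1MT* (5.54 ± 0.441), each with SD and n = 3. No neighbours in that order overlapped. Its lower part depends on the exon lengths in the table, which need not be those of the transcripts made. By CPM alone with DMSO, *TDP1* (71.6) came before *TOP3A* (47.3), *TDP2* (38.7) and *TOP1MT* (35.7). With TH588, *TOP2B* (73.6 ± 4.66 CPM per kb) came first, followed by *TOP2A* (53.8 ± 6.49) and *TOP1* (41.1 ± 8.39), and the lowest *TOP2A* library, at 46.4, lay just above the highest *TOP1* library, at 46.1. *TDP2* (12.2 ± 0.160) and *TDP1* (7.69 ± 0.151) remained apart, while *TOP1MT* (4.58 ± 0.565) and *TOP3A* (4.20 ± 0.336) overlapped. The summed level of the detected topoisomerases was 303.0 ± 6.25 CPM per kb with DMSO and 177.4 ± 19.9 with TH588 (SD, n = 3 each). *TOP2A* accounted for 49.8% ± 0.556 of this sum with DMSO and 30.3% ± 0.342 with TH588, *TOP2B* for 26.1% ± 0.608 and 41.7% ± 2.23, and *TOP1* for 19.9% ± 0.944 and 23.0% ± 2.31.

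**Figure D4:**
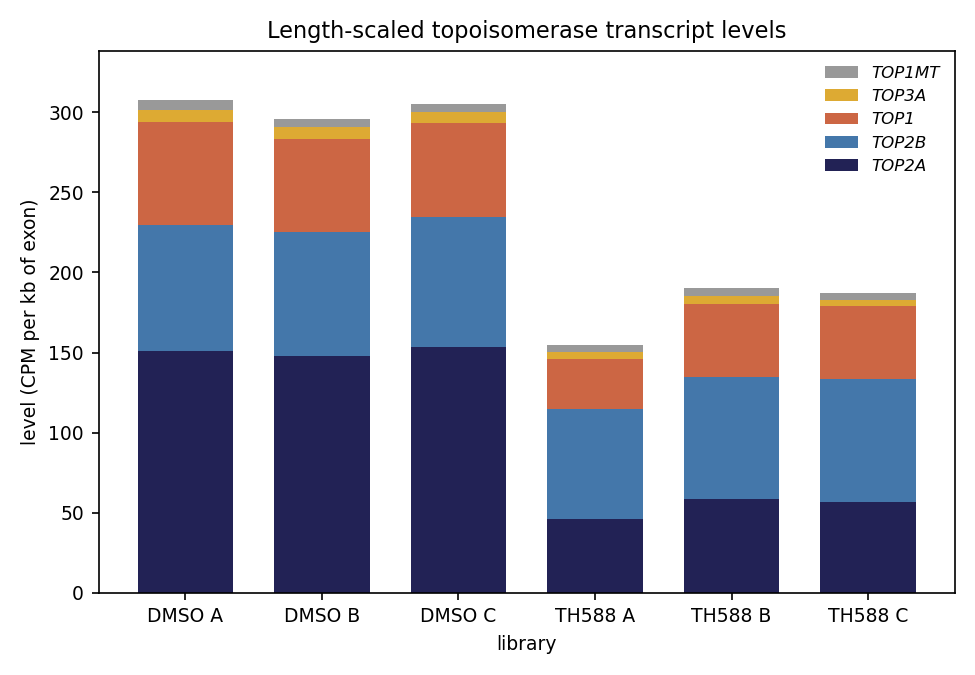
Length-scaled levels (CPM per kb of exon) of the 5 detected topoisomerase genes, stacked for each library. The *TOP2A* segment shrinks from 150.9 to 53.8 CPM per kb on average, while the *TOP2B* segment is 79.0 and 73.6.

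The fall of *TOP2A* was set beside that of other genes of its cell cycle phase. All 34 listed G2/M genes, a list chosen with earlier results of these data known, were called lower, against 25.3% of all genes tested. They fell by log2 fold changes between -1.86 and -0.34 (median -1.11). *TOP2A* was near the lower end of this range. Only 4 of the 34 had a more negative value, namely *CDK1* (-1.86), the mitotic kinase, *HJURP* (-1.63), the chaperone of centromeric histone, and, named after their values were seen, *MKI67* (-1.59), the Ki-67 proliferation antigen, and *PRC1* (-1.51), a spindle midzone protein. The genes of chromosome condensation and cohesion listed alongside topoisomerase IIα were lower as well, 12 of 12. Their median was -1.22, and that list was chosen with the same knowledge. *NCAPH* (-1.60) and *NCAPG* (-1.57), subunits of condensin I, fell most. The cohesin genes *SMC1A* (-1.23), *SMC3* (-0.88) and *RAD21* (-0.36) were placed in that list, while other cohesin genes were placed among loop anchor partners. A contrast between these lists therefore depends on that division. Of 4 genes for partners of topoisomerase IIβ at loop anchors, 2 were lower (50.0%, against 25.3% of all genes). These were *STAG1* (-0.75), a cohesin subunit, and *CTCF* (-0.42), the insulator protein. *STAG2* (0.09) and *NIPBL* (-0.01) did not pass the threshold.

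**Figure D5:**
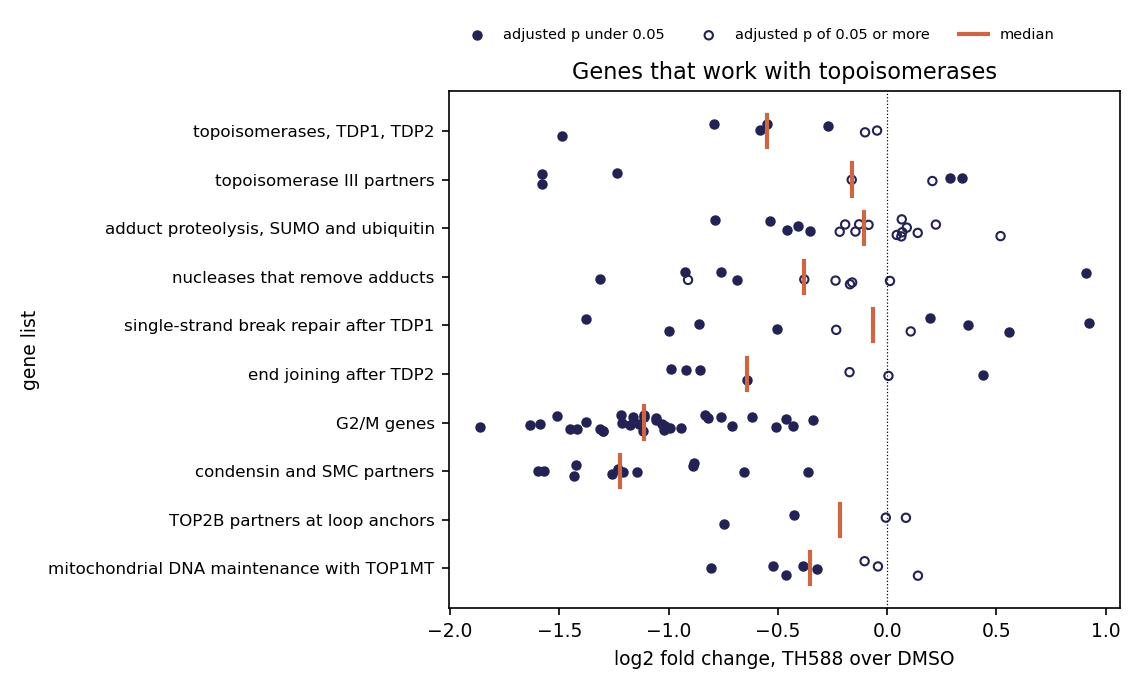
Log2 fold change (TH588 over DMSO) of the tested genes in each list; filled points have an adjusted p under 0.05 in edgeR's test, open points do not, and orange bars are medians. G2/M genes and condensin and SMC partners all lie below 0, with medians of -1.11 and -1.22, and the repair lists spread to both sides of 0.

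Of 7 genes for partners of the topoisomerase III enzymes, 3 were lower and 2 higher, against 25.3% and 24.2% of all genes. *BLM* (-1.58) and *RMI1* (-1.58), which form the dissolvasome with TOP3A, fell steeply. *BLM* went from 68.5 ± 1.57 to 22.8 ± 3.63 CPM and *RMI1* from 20.5 ± 0.739 to 6.86 ± 0.651 CPM (SD, n = 3 each). *RMI2*, the remaining subunit, also passed the threshold as lower (-1.24), but at under 1 CPM. *TDRD3* (0.29), the Tudor protein that partners TOP3B, and *FXR1* (0.34), a relative of the fragile X protein, rose. *FMR1* (-0.16) and *FXR2* (0.21) did not pass the threshold. The count of 5 fell to 3 without DMSO replicate B or without TH588 replicate C.

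Other factors clear a trapped topoisomerase before TDP1 or TDP2 can act. In the list of proteolysis, SUMO and ubiquitin factors, 5 of 18 tested genes were lower (27.8%, against 25.3% of all genes) and none was higher, with a median log2 fold change of -0.11. Under the alternatives run, between 0 and 2 were called higher. *SUMO3* (-0.54), which encodes a SUMO modifier, was among those that fell. *SPRTN* (0.07), the protease of DNA-protein adducts, and *ZNF451* (0.22), the SUMO ligase that assists TDP2, did not pass the threshold. Of 11 nuclease genes, 4 were lower (36.4%, against 25.3% of all genes) and 1 higher (median -0.38). *RBBP8* (-1.31), which encodes CtIP, and *NBN* (-0.93), a subunit of the MRE11 complex, fell. *ERCC1* (0.91), partner of the XPF nuclease, rose from 64.4 ± 4.09 to 121.1 ± 15.1 CPM (SD, n = 3 each), while *ERCC4*, which encodes XPF, was at 0.01. *SLX1A* and *SLX1B* are near-identical copies that share 86.2% and 82.4% of their exon bases with other genes, and their values are uncertain.

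Downstream of TDP1, 4 of 10 genes of single-strand break repair were higher and 4 lower, against 24.2% and 25.3% of all genes. The median of the list was -0.06. The count of higher genes was 2 without DMSO replicate A or without TH588 replicate C, while 4 were lower in both fits. *FEN1* (-1.38), the flap nuclease, fell, and *PARP1*, the break sensor, fell from 1147 ± 63.0 to 574.0 ± 58.3 CPM (SD, n = 3 each). *POLB* (0.37), the gap-filling polymerase, was among those that rose. *XRCC1* (-0.23), the scaffold, did not pass the threshold (edgeR adjusted p = 0.0837). Downstream of TDP2, 4 of 7 end joining genes were lower (57.1%, against 25.3% of all genes) and 1 higher, with a median of -0.64. *PAXX* (-0.99) and *XRCC5* (-0.92), which encodes Ku80, fell, and *LIG4* (0.44), the ligase, rose. In the mitochondrial DNA maintenance list, 5 of 8 were lower (62.5%, against 25.3% of all genes) and none was higher (median -0.35). *TFAM* (-0.81), which packages mitochondrial DNA, and *SSBP1* (-0.52), its single-strand binding protein, fell most.

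For each member, the genes with the most similar profile were sought among the 9712 genes whose mean log2 CPM was 2 or more, by the root mean square difference over the 6 libraries between log2 CPM values centred on each gene's mean. The nearest to *TOP2A* were *MCM8*, *SPC25* and *KNL1*, at 0.03, 0.06 and 0.06, which encode a recombination helicase and kinetochore proteins. The nearest to *TOP1* was *UBN1* (0.03), to *TOP3A* *NCOA5* (0.02), to *TDP1* *RPIA* (0.02), to *TOP1MT* *ECHS1* (0.02), to *TOP2B* *RTN3* (0.02) and to *TDP2* *CDC42BPA* (0.02). The 6 libraries form 2 treatment groups, which all these profiles share.

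Several members share a start region with a gene on the opposite strand. *TDP2* and *ACOT13*, a mitochondrial thioesterase gene, start 2 bases apart in the table. *ACOT13* rose from 6.38 ± 0.286 to 10.0 ± 1.32 CPM (SD, n = 3 each), or 0.65 on the log2 scale (edgeR adjusted p = 0.00105), beside -0.05 for *TDP2*. *TOP3A* and *SMCR8*, an autophagy regulator, start 303 bases apart, and *SMCR8* had a log2 fold change of 0.03 (edgeR adjusted p = 0.751), beside -0.79 for *TOP3A*. *TDP1* and *EFCAB11* start 162 bases apart, and *EFCAB11* fell by 0.57 on the log2 scale (edgeR adjusted p = 0.00168), beside 0.58 for *TDP1*. The differences within these pairs were not tested. Among the other list genes named above, *PRC1* shared 58.4% of its exon bases with other genes, *NCAPG* 33.1%, *ERCC1* 28.6%, *ERCC4* 25.7%, *XRCC1* 24.0% and *STAG1* 21.2%, and the counts of these genes are uncertain to that extent. *TOP3A*, *TDP1* and *TDP2* shared no exon bases with another gene, whereas 2.41% of the *TOP1* and 0.993% of the *TOP2B* exon bases were shared.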

How the data were processed

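RNA from A2780 cells was measured in 3 DMSO and 3 TH588 libraries made with an Illumina TruSeq kit. The authors aligned the reads to GRCh38 with TopHat, counted them per gene with featureCounts 1.4.6 and deposited raw counts without normalization. UCSC gene models are named in their methods, but the rows carry Ensembl identifiers; the strand and overlap settings are not given in the sources used here. The authors' own comparison used DESeq2.

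From the deposited counts, edgeR 4.0.16 in R 4.3.3 was run over the whole table with its default filter, TMM normalization and the quasi-likelihood test, without a replicate term. Standard errors were obtained by dividing each log2 fold change by the root of its F statistic. The CPM values use the TMM library sizes. Symbols came from GENCODE 44 identifiers. Ratios of genes were compared with exact permutation tests; *TOP3A*/*TOP3B* was planned but had no counts for *TOP3B*. Genes named from lists are the 2 largest rises and 2 largest falls with an adjusted p under 0.05 and a mean log2 CPM of at least 2, unless stated; for each member the 3 most similar genes were found, and the nearest is given for all but *TOP2A*. Other list genes named were chosen after their values were seen. Some list genes that meet this rule are not reported here. The members and lists were chosen with earlier results of these data known. Alternatives were limma-voom (limma 3.58.1), DESeq2 1.42.0, its size factors within edgeR, scaling by library size alone, 2 other filters, each library left out, a replicate block and an adjusted p under 0.01. The procedure was tested on simulated counts, where it recovered 98.5% of the changed genes with higher counts, and 3.27% of its calls were false. The simulation changed few genes, equally up and down, whereas 49.6% of the genes tested here were called. It therefore did not test the scaling between libraries. Replicates differed by more than sampling noise (chi-square per degree of freedom 25.0 to 176.0), so each library counted once. Floors and counts cover counting error only.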

Additional observations from a re-analysis of the deposited data

How the results depend on the processing

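*TOP2A*, *TOP3A* and *TDP1* kept their direction and their call under every alternative run, with log2 fold changes from -1.55 to -1.38, from -0.86 to -0.69 and from -0.59 to -0.48. With library size only, the median of all genes moved from 0.019 to 0.126, 60.4% of called genes were higher against 48.9%, *TOP1* was -0.433 and lost its call, *TOP1MT* was -0.164 and lost its call, *TOP2B* was 0.006, *TDP2* was 0.059, and 3 mitochondrial DNA maintenance genes were called, against 5. *TOP1MT* also lost its call with limma-voom (-0.261), with at least 10 counts in every library (-0.25) and with the replicate block (-0.276), and ranged from -0.382 to -0.187 with each library left out, where it was called only without TH588 replicate B. *TOP1* ranged from -0.64 to -0.38 in those fits. The count of called topoisomerase III partners ranged from 3 to 6 with each library left out and was 3 at an adjusted p under 0.01. The cause was not tested.

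All genes called numbered 7852, and 7195 with the replicate block, 7129 of them shared. For letters A, B and C, the correlation between the DMSO and TH588 library, each taken relative to its group mean, was -0.26, -0.35 and 0.01. Pairing by letter was thus not seen, but with 3 libraries per group these values cannot show that the letters are unpaired. The block changed the call of no member other than *TOP1MT*. Within letters, the *TOP2A*/*TOP2B* and *TDP1*/*TDP2* log2 ratios differed by -1.391 and -0.535 and *TOP1*/*TOP1MT* by -0.294, where an exact sign-flip test cannot go below 0.25. Depth limits TH588 replicate A most, where 3 counts are 0.112 CPM.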

Other observations

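The 0 counts of *TOP3B* have company. Of 455 protein-coding genes in the table with at least 90% of their exon bases under exons of other genes, 276 (60.7%) were at 0 in all 6 libraries, against 337 of 3362 (10.0%) with between 10% and 90% shared and 2348 of 15956 (14.7%) with under 10% shared. These are descriptions of the table; whether shared exons set the counts of any 1 gene was not tested.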
